A study of Homo sapiens with 56 samples.

Results

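PEO1 cells given 4-hydroxytamoxifen (4OHT) together with estradiol (E2) were compared with PEO1 cells given E2 alone. The arrays were chosen by their titles, 4 with 4OHT+E2 and 4 with E2, which makes 8 of the 56 arrays of the series. The genes called with 4OHT on top of E2 were then divided, mainly into those that E2 was called to move in the opposite direction and those with no E2 call.

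PEO1 and PEO4 are established cell lines of high-grade serous ovarian carcinoma that express estrogen receptor alpha. Both were deprived of hormone for 3 days, in charcoal-stripped serum and without phenol red, and were then treated for 3 h. The PEO1 groups used here, of 4 arrays each, received 1 µM 4OHT with 1 nM E2 (4OHT+E2), 1 µM of the antagonist ICI (fulvestrant) with 1 nM E2 (ICI+E2), 1 nM E2, 1 µM 4OHT, or ethanol as vehicle. In PEO4 the 4OHT+E2, E2 and vehicle groups, of 4 arrays each, were used as well. All groups share the hormone deprivation, so every level here is that of a deprived cell exposed to an agent for 3 h. Nothing in the labels says that the replicates A to D came from separate cultures, and the p-values measure the spread between these arrays. Each line is a single cell line, not a sample of tumours.

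E2 binds the ligand pocket of estrogen receptor alpha, and the receptor then recruits coactivators to estrogen response elements and to sites that it reaches through other factors such as AP-1. 4OHT, an active metabolite of tamoxifen, competes for the same pocket and turns the coactivator surface away, yet it activates some genes in some tissues. ICI also competes for the pocket and in addition leads to loss of the receptor protein.

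Levels are log2 values of hybridised RNA, so 1 unit is a doubling. Array medians in PEO1 lay between 7.409 and 7.490. The difference between 3′ and 5′ control probe sets, a sign of RNA quality, was -0.11 to 0.14 for ACTB in the 4OHT+E2 arrays and -0.21 to 0.04 in the E2 arrays. Replicates correlated across genes at 0.9972 to 0.9984 in 4OHT+E2 and 0.9978 to 0.9986 in E2. Of 11 serous carcinoma markers, 10 were at 8.27 or more in 4OHT+E2, while SOX17 averaged 3.87 with 4OHT+E2 and 3.85 with E2. None of the 15 leukocyte, endothelial, hepatocyte and neural markers measured passed the test, which concerns change and not absence. PTPRC, the common leukocyte antigen, averaged 3.16 in both groups, the lowest of the leukocyte markers. CD3E averaged 6.99 with 4OHT+E2 and 6.92 with E2. The neural marker MAP2 averaged 8.25 and 8.29, and the stromal marker COL1A1 8.25 and 8.19, close to the lower serous markers. Of 6 stromal markers THY1 was lower, at 11.49 with 4OHT+E2 and 11.74 with E2. The arrays of 4OHT+E2 had estimated precision weights of 0.65, 1.35, 0.48 and 0.57, against 1.17, 0.81, 1.03 and 0.93 for E2.

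Addition of 4OHT to E2 lowered the estrogen-induced genes GREB1, DEPTOR, CA12, ARHGAP26 and CADM1 to or below vehicle levels, and it raised HSPA6, NR4A3, BCL2A1, FOSB, CCL20 and GEM, which E2 by itself was not called to change. The limma fit called a gene at a Benjamini-Hochberg adjusted p under 0.05 over 11963 genes. It called 1525 genes between 4OHT+E2 and E2, 12.7% of those tested, 510 higher (4.26%) and 1015 lower (8.48%). That split depends on scaling: after quantile normalization 596 genes were higher and 661 lower. Without E2 replicate C the count was 951, and without 4OHT+E2 replicate C it was 2079. Over all genes, the 4OHT+E2 and E2 arrays did not overlap in 1660 (13.9%). Genes picked for a large change tend to be among these, so non-overlap adds little for them. Each array holds the RNA of a whole culture, so fewer cells of a kind and less RNA per cell cannot be told apart.

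The 1525 genes fell into 4 groups by what E2 did against vehicle, a comparison that called 250 genes (2.09%), 187 higher (1.56%) and 63 lower (0.527%). Reversal, a call in the opposite direction to the E2 call, held 175 genes (11.5%), of which 140 were lower and 35 higher with 4OHT+E2. Genes moved further in the E2 direction numbered 3. A further 1182 genes (77.5%), 361 higher and 821 lower, had an E2 change with a 95% interval inside ±0.3, and with a bound of 0.2 there were 790. Their median change with 4OHT+E2 against E2 was 0.227 where higher and -0.19 where lower. The bound of 0.3 is wider than these medians, so a small E2 change here can be as large as the 4OHT change. The remaining 165 had no E2 call but an interval that reached past 0.3. The comparisons 4OHT+E2 against E2 and E2 against vehicle share the E2 arrays with opposite sign, so part of the opposite direction is built in. The comparison of 4OHT+E2 with 4OHT shares no array with E2 against vehicle and is given beside it.

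GREB1, an estrogen receptor cofactor and classic estrogen target, had log2 levels of 5.08, 4.92, 5.24 and 5.11 with 4OHT+E2, against 7.77, 7.76, 7.83 and 7.59 with E2. In 4OHT alone it had 4.95, 4.78, 5.03 and 4.97, and in vehicle 5.81, 5.53, 6.01 and 5.72. All 4OHT+E2 arrays lay below every E2 and every vehicle array. The difference from E2 was -2.65 ± 0.09 (log2, SE, n = 4 each, limma adjusted p = 6.46e-17), a 6.27-fold lower level. Against vehicle it fell by 0.68 with 4OHT+E2 (adjusted p = 2.13e-05) and by 0.83 with 4OHT alone (adjusted p = 2.4e-06). Of its other probe sets, 1 fell by 0.56 (adjusted p = 0.000158) and 1 differed by -0.15 (adjusted p = 0.202).

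CA12, a membrane carbonic anhydrase, had 8.73, 8.74, 8.74 and 8.81 with 4OHT+E2, against 9.81, 9.97, 9.65 and 9.89 with E2. In vehicle it had 8.79, 8.85, 8.82 and 8.74, which overlapped the 4OHT+E2 arrays and not the E2 arrays. It fell by 1.07 ± 0.05 relative to E2 (limma adjusted p = 4.03e-14), and the difference from vehicle was -0.05 (adjusted p = 0.643). 4OHT alone differed from vehicle by -0.09 (adjusted p = 0.283), so the 4OHT effect with E2 minus that without E2 was -0.98 (adjusted p = 8.54e-10). Its other probe sets gave -1.1, -1.36, -1.03 and -1.01, apart from 1 at 0.03.

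ARHGAP26, a GTPase-activating protein, had 8.26, 8.47, 8.46 and 8.45 with 4OHT+E2, against 9.53, 9.35, 9.43 and 9.59 with E2 and 8.41, 8.30, 8.46 and 8.40 in vehicle. CADM1, a cell adhesion molecule, had 9.75, 9.64, 9.82 and 9.82 with 4OHT+E2, against 10.75, 10.72, 10.71 and 10.71 with E2 and 9.69, 9.68, 9.82 and 9.70 in vehicle. Both were apart from E2 in every array and overlapped vehicle. The differences from E2 were -1.07 ± 0.06 for ARHGAP26 (limma adjusted p = 1.35e-12) and -0.96 ± 0.05 for CADM1 (adjusted p = 8.68e-14). Without E2, 4OHT differed from vehicle by 0.02 for ARHGAP26 and by -0.01 for CADM1.

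DEPTOR, an inhibitor of mTOR kinase, had 6.94, 6.88, 7.05 and 6.94 with 4OHT+E2, against 8.06, 8.23, 8.20 and 7.86 with E2 and 7.41, 7.31, 7.20 and 7.23 in vehicle. Its 4OHT+E2 arrays were below all arrays of both other groups. It fell by 1.14 ± 0.08 relative to E2 (limma adjusted p = 9.47e-11) and by 0.33 relative to vehicle (adjusted p = 0.00999). FLG, which encodes the epidermal protein filaggrin, had 9.42, 9.32, 9.33 and 9.21 with 4OHT+E2, against 10.27, 10.36, 10.35 and 10.22 with E2 and 9.79, 9.76, 10.01 and 9.90 in vehicle. FLG likewise lay below vehicle in every array, and it fell by 0.98 ± 0.08 relative to E2 and by 0.55 relative to vehicle. OLFML3, a secreted olfactomedin-domain protein, fell by 0.94 relative to E2 and by 0.30 relative to vehicle.

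**Figure D1:**
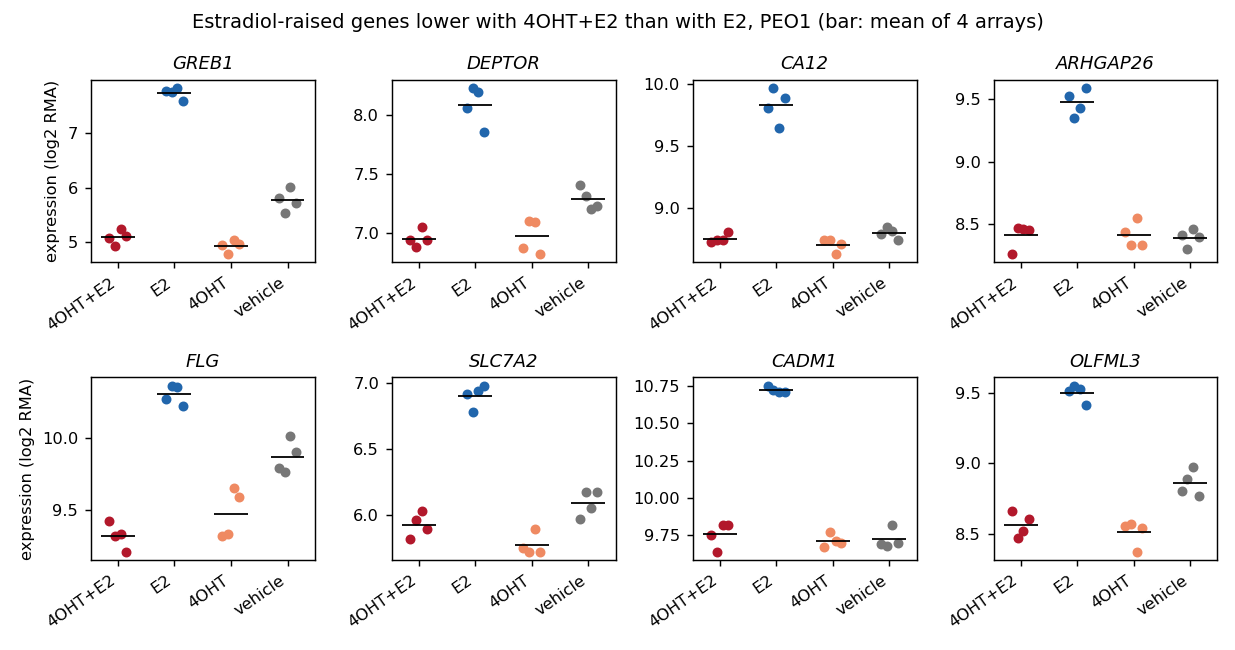
Log2 RMA level (y axis, not starting at 0) of 8 genes that E2 raised and 4OHT lowered on top of E2, by group (x axis), 1 dot per array and a bar at the mean of 4. The 4OHT+E2 arrays of GREB1 (4.92 to 5.24) lie below its E2 arrays (7.59 to 7.83), and those of CA12, ARHGAP26 and CADM1 lie among the vehicle arrays.

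PLAT, tissue plasminogen activator, had 7.43, 7.51, 7.49 and 7.42 with 4OHT+E2, against 8.37, 8.49, 8.33 and 8.32 with E2, and fell by 0.91. CISH, a suppressor of cytokine signalling, had 8.36, 8.37, 8.30 and 8.42 with 4OHT+E2, against 9.38, 9.17, 9.39 and 9.15 with E2. It also fell by 0.91, and it ended 0.29 below vehicle on the log2 scale, since 4OHT+E2 minus vehicle was -0.29 (limma adjusted p = 0.000929). IL12A, a subunit of interleukin 12, fell by 0.89, with a difference from vehicle of 0.01 (adjusted p = 0.983). NPY1R, a neuropeptide Y receptor, fell by 0.87, and SLC7A2, a cationic amino acid transporter, by 0.98. SLC22A5, the carnitine transporter, fell by 0.83, and KCNF1, a potassium channel subunit, by 0.86.

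MYC, a transcription factor of growth, had 12.11, 12.07, 12.06 and 12.08 with 4OHT+E2, against 12.48, 12.50, 12.52 and 12.39 with E2 and 12.22, 12.20, 12.25 and 12.26 in vehicle. The 4OHT+E2 arrays were below every array of both groups, and MYC fell by 0.39 ± 0.04 relative to E2 (limma adjusted p = 1.01e-07) and by 0.16 relative to vehicle. MECOM, a zinc finger transcription factor, had 8.33, 8.14, 8.33 and 8.30 with 4OHT+E2, against 8.75, 8.94, 8.97 and 8.87 with E2, and fell by 0.61. BMAL1, a core factor of the circadian clock, fell by 0.52, and BCL2L11, which encodes the pro-apoptotic protein BIM, by 0.43. PTGS2, the inducible cyclooxygenase, had 5.62, 5.46, 5.88 and 5.66 with 4OHT+E2, against 6.21, 6.28, 6.20 and 6.11 with E2, and fell by 0.55 (adjusted p = 0.000702).

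Of the 187 genes that E2 raised, 140 (74.9%) were called lower with 4OHT+E2 than with E2, 2 were called higher and 45 were not called. Against vehicle, 139 of the 187 were within 0.3 with no call, 23 were called still above it and 15 were called below it. Over all genes, 4OHT+E2 against vehicle called 810 (6.77%), 303 higher (2.53%) and 507 lower (4.24%), or 449 and 405 after quantile normalization. The median E2 change of the 187 was 0.273 without 4OHT, and the median of 4OHT+E2 minus 4OHT was 0.051. The bound of 0.3 is wider than that E2 median, so a gene within it may keep part of its E2 change. No gene at all was called between 4OHT+E2 and 4OHT by limma (0 of 11963, 0.0%), with 984 genes at an unadjusted p under 0.05, and 5 genes were called without 4OHT replicate B. Of the 187, 43 were at an unadjusted p under 0.05 in that comparison, 135 had a difference in the E2 direction, and 173 had a 95% interval inside ±0.3. Over all 250 E2 genes the line through 0 of 4OHT+E2 minus 4OHT on E2 minus vehicle had a slope of 0.09, a description of genes chosen on the second of these differences.

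**Figure D2:**
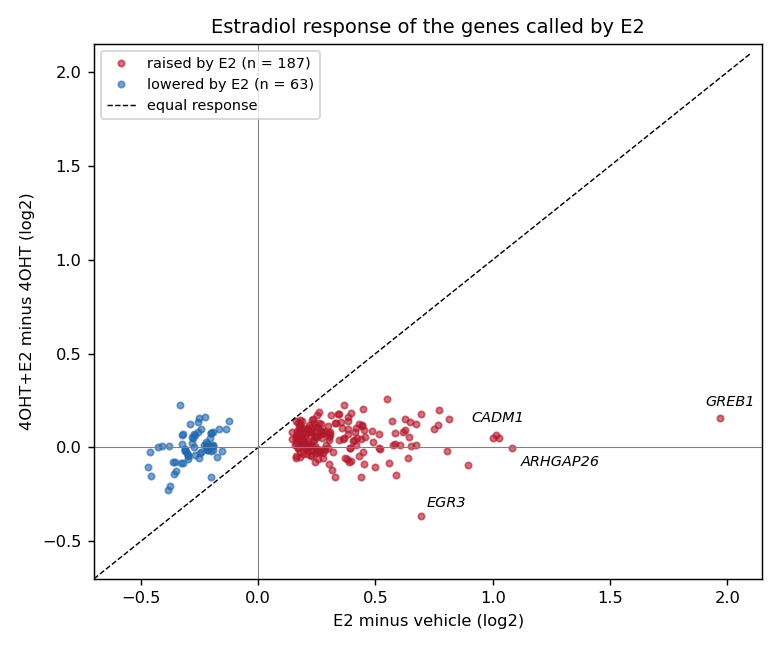
E2 change without 4OHT (x axis, E2 minus vehicle, log2) against E2 change with 4OHT present (y axis, 4OHT+E2 minus 4OHT, log2) for the 187 genes raised (red) and 63 lowered (blue) by E2, 1 point per gene and no shared array between the axes. Points lie near 0 on the y axis and away from the dashed line of equal change, with the largest size on the y axis 0.37.

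A direct test of whether 4OHT acted differently with and without E2 called 80 genes (0.669%), 60 lower (0.502%) and 20 higher (0.167%). GREB1 led the lower ones at -1.81 (limma adjusted p = 8.54e-10), followed by ARHGAP26 at -1.09, EGR3 at -1.06, IL12A at -0.99 and CA12 at -0.98. FCER2, a low-affinity IgE receptor, was the highest at 0.58 (adjusted p = 0.0127), a call lost when the fit held the 4 groups of this test alone.

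Of the 63 genes E2 lowered, 35 (55.6%) were called higher with 4OHT+E2 than with E2, 1 lower and 27 were not called. Against vehicle, 33 were within 0.3 with no call, 15 were called still below it and 7 were called above it. Their median E2 change of -0.271 is smaller in size than the bound of 0.3. PLAUR, the urokinase receptor, had 10.58, 10.58, 10.64 and 10.54 with 4OHT+E2, against 10.11, 9.99, 10.05 and 10.03 with E2 and 10.32, 10.29, 10.33 and 10.13 in vehicle. All its 4OHT+E2 arrays were above every E2 and vehicle array, and it rose by 0.54 ± 0.05 relative to E2 (limma adjusted p = 8.84e-09). PLAU, urokinase itself, had 11.29, 11.29, 11.29 and 11.28 with 4OHT+E2, against 10.97, 10.88, 10.89 and 10.94 with E2, and rose by 0.37 to a level that differed from vehicle by 0.06 (adjusted p = 0.554). The 2 plasminogen activators moved in opposite directions, PLAT lower and PLAU higher, each against its E2 change.

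ARID5B, a chromatin-associated ARID protein, had 7.93, 8.01, 8.39 and 8.57 with 4OHT+E2, against 7.57, 7.71, 7.77 and 7.45 with E2 and 8.05, 8.08, 8.12 and 8.06 in vehicle. The 4OHT+E2 arrays were all above E2 and lay on both sides of vehicle, with a difference from E2 of 0.60 ± 0.10 (limma adjusted p = 0.000228). DLX2, a homeobox factor, had 10.68, 10.37, 10.37 and 10.29 with 4OHT+E2, against 9.86, 10.08, 10.10 and 9.90 with E2, and rose by 0.44. KLF9, a Krüppel-like factor, rose by 0.58, SAMD4A, an RNA-binding protein, by 0.59, CYP26B1, a retinoic acid hydroxylase, by 0.53, and CITED2, a transcriptional coregulator, by 0.49. Of the other KLF9 probe sets, 1 was called (0.51) and 1 was not (-0.04), and of those for SAMD4A 1 was called (0.34) and 2 were not (0.14 and 0.0). The other DLX2 probe set was not called (0.08).

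Some E2 genes stayed where E2 had put them. EGR3, an early growth response factor, had 5.98, 5.60, 6.15 and 6.24 with 4OHT+E2, against 5.95, 6.06, 6.19 and 5.72 with E2. In 4OHT alone it had 6.62, 6.56, 6.18 and 6.08, and in vehicle 5.20, 5.33, 5.24 and 5.37. The 4OHT+E2 and E2 arrays overlapped (0.01 ± 0.13, limma adjusted p = 0.957), while each agent alone raised EGR3 over vehicle, E2 by 0.70 (adjusted p = 0.00129) and 4OHT by 1.08 (adjusted p = 5.5e-06). GAS1, a growth-arrest membrane protein, had 7.32, 7.45, 7.45 and 7.20 with 4OHT+E2, against 7.37, 7.43, 7.37 and 7.24 with E2 and 7.89, 7.74, 7.89 and 7.75 in vehicle. GAS1 also overlapped E2 (0.0, adjusted p = 0.992), and it fell by 0.47 with E2 and by 0.36 with 4OHT. Both genes were picked after their values were seen.

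The 3 genes moved further along the E2 direction were PRR15L, SOWAHC and TNFAIP2. PRR15L had 7.62, 7.64, 7.82 and 7.67 with 4OHT+E2, against 8.03, 8.08, 8.05 and 8.02 with E2 and 8.33, 8.27, 8.26 and 8.31 in vehicle, a fall of 0.36. SOWAHC rose by 0.20 and TNFAIP2, a tumour necrosis factor-induced gene, by 0.23. 4OHT alone was called in the same direction for each of them, at -0.55, 0.34 and 0.35 in the order named.

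Of the genes E2 was not called to change, HSPA6, NR4A3, BCL2A1, FOSB, CCL20 and GEM rose most. HSPA6, a stress-inducible member of the HSP70 chaperones, had 9.10, 8.53, 8.64 and 9.30 with 4OHT+E2, against 7.14, 6.97, 6.77 and 6.77 with E2. In 4OHT alone it had 8.81, 9.33, 8.40 and 8.14, and in vehicle 7.07, 6.95, 7.30 and 6.84. The arrays with 4OHT all lay at 8.14 or higher and those without it at 7.30 or lower, and the 4OHT+E2 arrays spread widely. HSPA6 rose by 1.98 ± 0.18 (limma adjusted p = 1.24e-08), 3.94-fold, while E2 against vehicle was -0.13 (adjusted p = 0.874). Another HSPA6 probe set rose by 1.07. Whether its probes also bind the closely related HSPA7 transcript was not tested.

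NR4A3, an orphan nuclear receptor and early response gene, had 7.59, 7.83, 7.50 and 7.83 with 4OHT+E2, against 5.96, 5.85, 5.81 and 6.03 with E2. BCL2A1, an anti-apoptotic BCL2 relative, had 8.39, 8.32, 8.07 and 7.89 with 4OHT+E2, against 6.18, 6.63, 6.53 and 6.34 with E2. Neither gene's groups overlapped, by a margin of over 1 unit. NR4A3 rose by 1.77 ± 0.15 (limma adjusted p = 3.38e-09) and BCL2A1 by 1.75 ± 0.14 (adjusted p = 1.83e-09). Of the other NR4A3 probe sets, 1 was called (1.13) and 1 was not (0.14). FOSB, an AP-1 subunit, had 7.18, 7.32, 7.69 and 8.70 with 4OHT+E2, against 6.09, 6.22, 6.14 and 6.14 with E2. FOSB was highest in replicate D and above E2 in all 4, and it rose by 1.57 ± 0.21 (adjusted p = 9.04e-06).

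CCL20, a chemokine, had 7.28, 7.42, 7.06 and 6.81 with 4OHT+E2, against 5.85, 5.85, 5.66 and 5.88 with E2, and rose by 1.33 ± 0.15 (limma adjusted p = 3.61e-07). GEM, a small GTPase, had 10.90, 10.86, 10.94 and 11.17 with 4OHT+E2, against 9.84, 9.86, 9.79 and 9.57 with E2, and rose by 1.20 ± 0.08 (adjusted p = 4.54e-11). In both genes the lowest 4OHT+E2 array exceeded the highest E2 array. CALCB, a calcitonin gene-related peptide, rose by 1.03, ATF3, a stress-induced transcription factor, by 0.93, and RGCC, a regulator of the cell cycle, by 0.93. EREG and HBEGF, ligands of the EGF receptor family, rose by 0.92 and 0.84, and RAP1GAP2, a Rap1 GTPase-activating protein, by 0.84.

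**Figure D3:**
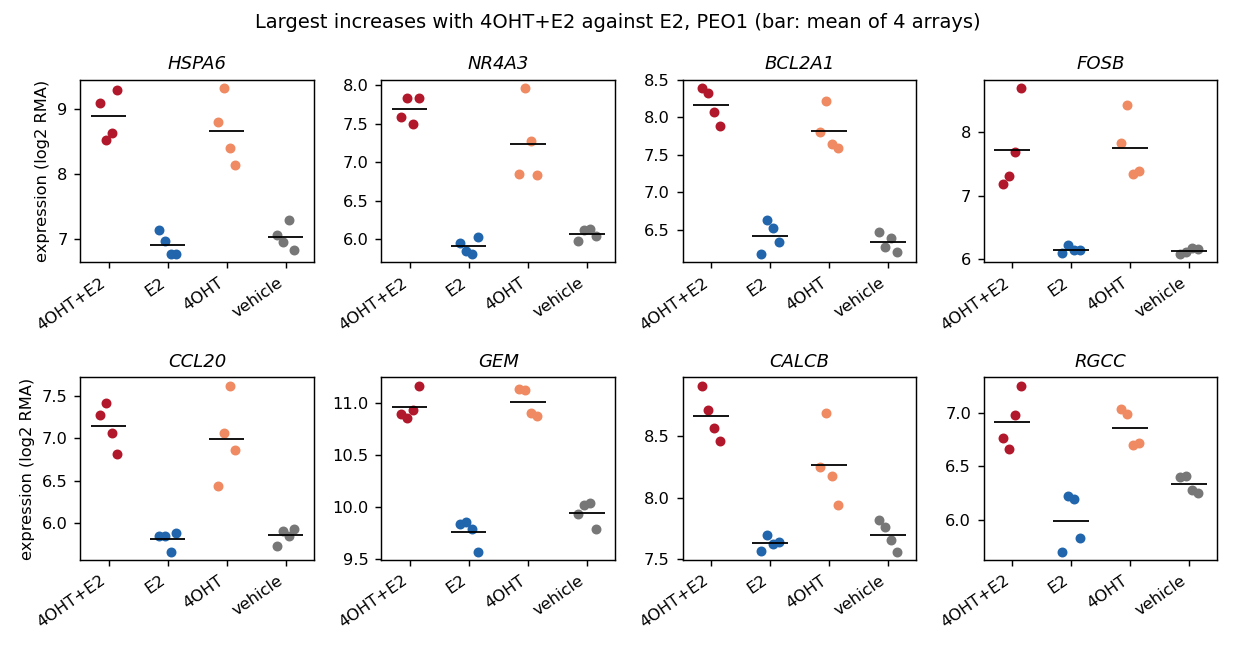
Log2 RMA level (y axis, not starting at 0) of 8 genes that rose with 4OHT on top of E2 and that E2 alone was not called to change, by group (x axis), 1 dot per array and a bar at the mean of 4. Both groups with 4OHT stand above both groups without it, and FOSB and HSPA6 have the widest spread among 4OHT+E2 arrays (7.18 to 8.70 and 8.53 to 9.30).

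4OHT alone against vehicle, which shares no array with 4OHT+E2 against E2, called 808 genes (6.75%), 230 higher (1.92%) and 578 lower (4.83%), or 312 higher and 277 lower after quantile normalization. Of the 1182 genes with a small E2 change, 380 were called in the same direction by 4OHT alone and 0 in the opposite direction, and 1124 had the same sign. Those genes were chosen because E2 and vehicle levels lay close. E2 and vehicle are the baselines of the 2 differences, so part of the agreement is built in. Across all 11963 genes the 2 differences correlated at r = 0.62, a description over genes that are not independent and share chip and normalization. HSPA6, BCL2A1, FOSB, NR4A3 and CCL20, which are not among the 1182, rose with 4OHT alone by 1.63, 1.47, 1.62, 1.17 and 1.14. GEM rose by 1.07 with 4OHT alone.

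**Figure D4:**
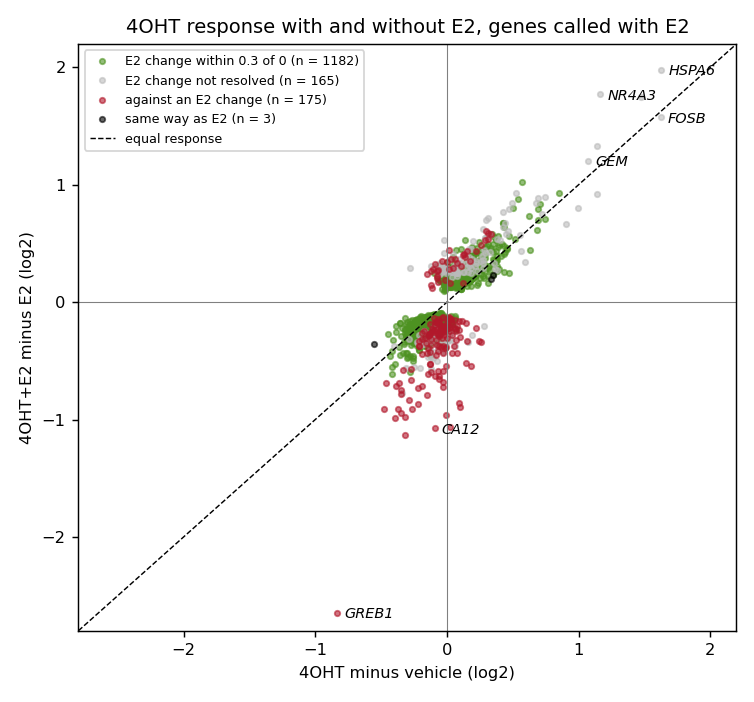
4OHT change without E2 (x axis, 4OHT minus vehicle, log2) against 4OHT change with E2 (y axis, 4OHT+E2 minus E2, log2), 1 point per gene called on the y axis, coloured by group: 1182 with a small E2 change, 165 unresolved, 175 reversed and 3 moved further in the E2 direction. The genes with a small E2 change have medians of 0.227 on the y axis and 0.106 on the x axis where raised, and -0.19 and -0.138 where lowered. Reversed genes such as GREB1 (-0.83 on the x axis, -2.65 on the y axis) lie further from the line of equal change. Part of this is built in, because the groups were set by E2 minus vehicle.

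Promoters of 3 raised genes are shown because they hold motifs of factors named in the lists described next. They are RefSeq windows of 300 bases on GRCh38.p14, from 250 before to 50 after the annotated start, with motif matches in capitals.
HSPA6, chr1:161524290-161524589, plus strand, with AP-1 letters TGANTCA at 2 places and, on the other strand, a heat shock element at 1 (GAA, TTC and GAA, parted by 2 bases each): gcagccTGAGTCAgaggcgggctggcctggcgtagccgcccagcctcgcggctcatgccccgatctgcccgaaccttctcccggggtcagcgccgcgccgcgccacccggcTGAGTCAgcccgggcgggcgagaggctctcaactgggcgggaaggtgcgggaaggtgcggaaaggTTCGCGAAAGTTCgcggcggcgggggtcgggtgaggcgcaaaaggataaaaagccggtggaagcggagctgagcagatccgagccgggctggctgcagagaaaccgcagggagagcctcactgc
CCL20, chr2:227813592-227813891, plus strand, with the NF-kB letters (GGGA and CC, parted by 4 bases) on either strand at 3 places: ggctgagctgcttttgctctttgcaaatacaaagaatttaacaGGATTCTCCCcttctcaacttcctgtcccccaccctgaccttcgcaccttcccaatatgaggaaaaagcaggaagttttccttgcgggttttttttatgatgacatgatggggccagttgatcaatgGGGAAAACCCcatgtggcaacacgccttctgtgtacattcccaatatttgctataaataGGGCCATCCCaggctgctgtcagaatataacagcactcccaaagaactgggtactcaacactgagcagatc
CXCL2, chr4:74099146-74099445, minus strand, with overlapping NF-kB matches, 1 on each strand: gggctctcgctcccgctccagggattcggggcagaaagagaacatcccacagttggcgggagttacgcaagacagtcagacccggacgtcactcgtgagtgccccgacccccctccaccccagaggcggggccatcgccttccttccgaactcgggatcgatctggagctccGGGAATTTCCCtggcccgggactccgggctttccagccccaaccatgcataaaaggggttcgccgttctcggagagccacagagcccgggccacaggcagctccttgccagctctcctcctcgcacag
Both strands were searched in the windows of 9563 tested genes. The heat shock element was found in 0.376% of them, and in 0.539% of the 371 windows of genes raised with 4OHT+E2 and not called with E2. The NF-kB letters were in 30.0% of all windows and 34.2% of the raised ones, and the AP-1 letters in 5.43% and 6.2%. An estrogen response element (GGTCA and TGACC, parted by 3 bases) occurred in 2 of 9563 windows and in 0 of the 107 windows of genes that E2 raised and 4OHT lowered. These counts describe letters in a short window only.

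Of 22 measured NF-kB subunits, chemokines and cytokines, 15 rose and 0 fell, beside 4.26% higher and 8.48% lower among all genes. The median of the list was 0.275, and that of all genes -0.014. CXCL2, a neutrophil chemokine, rose by 0.80, CXCL3 by 0.71, IL6 by 0.77, CCL2 by 0.67, ICAM1, an adhesion molecule, by 0.50 and the subunit NFKB1 by 0.46. CXCL2 and CXCL3 are near-identical copies, and their probe sets may share signal. IL6 had 8.50, 8.71, 8.59 and 8.43 with 4OHT+E2, against 7.75, 7.87, 7.81 and 7.72 with E2, with no overlap. NFKBIA, the feedback inhibitor, differed by 0.05 (limma adjusted p = 0.404) and TNF by 0.01 (adjusted p = 0.962). 4OHT alone also called 15 of the 22 higher and 0 lower, beside 1.92% higher and 4.83% lower among all genes. For 4OHT+E2 against E2, leaving out any 1 array left 14 to 16 higher.

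Of 25 immediate early transcription factors, 12 were called higher and 2 lower, the 2 being MYC and KLF4, beside 4.26% higher and 8.48% lower among all genes. The median was 0.308, and 0.137 without 4OHT+E2 replicate D. Besides NR4A3 and FOSB, NR4A2 rose by 0.89, FOSL1 by 0.62, NR4A1 by 0.39, JUND by 0.36 and KLF6 by 0.36. EGR1 differed by 0.34 (limma adjusted p = 0.22), FOS by 0.22 (adjusted p = 0.318) and JUN by 0.13 (adjusted p = 0.123). KLF4 had 10.06, 9.83, 9.77 and 10.07 with 4OHT+E2, against 10.27, 10.32, 10.26 and 10.24 with E2, which had raised it by 0.50. Of 15 feedback genes of MAP kinase signalling, 5 were higher and 0 lower, beside the same shares. The phosphatases DUSP4, DUSP5, DUSP14 and DUSP1 rose by 0.88, 0.84, 0.33 and 0.26, and PHLDA1 by 0.54, while DUSP6 differed by -0.08 (adjusted p = 0.428).

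Other stress lists moved in few members, to be read beside 4.26% higher and 8.48% lower among all genes. In the heat shock list HSPA6 and HSPB8 (0.28) rose, HSPD1 fell by 0.09, and 13 of 16 were not called. In the NRF2 oxidative stress list 4 of 12 rose, with HMOX1, heme oxygenase, at 0.70, SLC7A11 at 0.33, SQSTM1 at 0.24 and TXNRD1 at 0.20, and 2 fell, ABCC1 by 0.25 and GCLC by 0.19. HMOX1 had 8.88, 8.90, 9.24 and 9.42 with 4OHT+E2, against 8.41, 8.38, 8.35 and 8.48 with E2, without overlap. In the unfolded protein and integrated stress response list 4 of 23 rose, among them ATF3 and PPP1R15A (0.39), and 2 fell, DDIT4 by 0.38 and CEBPB by 0.12. CDKN1A, the p21 inhibitor, rose by 0.41 and TNFRSF10B, a death receptor, by 0.31 among 13 p53 targets. Of 17 cholesterol genes INSIG1, a sterol feedback protein, rose by 0.42 and PMVK fell by 0.18, and 0 of 6 fatty acid synthesis genes were called. The interferon list had IRF9 higher (0.41) and IFI27 lower (-0.14) of 19. The cholesterol and interferon counts, and the 2 lower of 23, lie near the shares among all genes.

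Genes of mitosis were lower by count, 17 of 24 with 0 higher and a median of -0.204. Among all genes 8.48% were lower and 4.26% higher, with a median of -0.014. AURKA, a mitotic kinase, had 10.95, 10.95, 11.03 and 10.89 with 4OHT+E2, against 11.24, 11.27, 11.29 and 11.25 with E2. In 4OHT alone it had 10.97, 10.87, 11.05 and 11.03, and in vehicle 11.27, 11.19, 11.33 and 11.29. AURKA separated the arrays by 4OHT and not by E2, and it fell by 0.31 ± 0.04 (limma adjusted p = 1.63e-05). NDC80, a kinetochore protein, fell by 0.42, CENPA, the centromeric histone, by 0.35 and MKI67, a proliferation marker, by 0.30. E2 called 0 of the 24 in either direction, which lies near the 2.09% it called among all genes. 4OHT alone called 14 lower, beside 4.83% lower among all genes. Of 22 G1/S and replication genes 7 were lower, with a median of -0.101. These counts shrink under other settings, to 12 of 24 and 3 of 22 after quantile normalization, 8 and 2 when the fit held the 2 compared groups alone, and 2 of 22 without 4OHT+E2 replicate A. The lower calls over all 11963 genes shrink too, with 1015 in the full fit and 661 after quantile normalization. They number 284 with the compared groups alone and 677 without 4OHT+E2 replicate A.

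Of 11 genes of BMP signalling and its ID targets, 4 fell and 0 rose, beside 8.48% lower and 4.26% higher among all genes. ID4, an inhibitor of helix-loop-helix factors, had 9.68, 9.75, 9.96 and 9.85 with 4OHT+E2, against 10.36, 10.49, 10.40 and 10.37 with E2 and 10.20, 10.21, 10.34 and 10.41 in vehicle. ID4 was lower than E2 and vehicle in every array, and it fell by 0.60 ± 0.06 (limma adjusted p = 1.9e-07). ID2 fell by 0.29, ID3 by 0.26 and the ligand BMP2, which E2 had raised by 0.55, by 0.23, while ID1 differed by -0.13 (adjusted p = 0.198). Of 15 ribosome biogenesis genes 5 fell, beside the same shares. When the fit held the 2 compared groups alone 1 of the 15 fell, and 284 of all 11963 genes were lower. ABCA1, a cholesterol efflux transporter, had 6.89, 6.90, 7.05 and 6.62 with 4OHT+E2, against 7.36, 7.64, 7.55 and 7.35 with E2, and fell by 0.61.

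Estrogen-induced genes known from breast cancer cells were lower in 14 of 37 and higher in 1, KCNK5 (0.19), a count to be read against 8.48% and 4.26%. The 14 include GREB1, DEPTOR, CA12, OLFML3, CISH, MYBL1 (-0.56), PDZK1 (-0.53), MYC, STC2 (-0.38) and NHERF1 (-0.27). TFF1 differed by 0.17 (limma adjusted p = 0.197), CCND1 by -0.17 (adjusted p = 0.127) and PGR by 0.09 (adjusted p = 0.535). PGR, the progesterone receptor, had 3.28, 3.25, 3.40 and 3.17 with 4OHT+E2, against 3.32, 3.27, 3.14 and 3.05 with E2, with overlap. Of 14 estrogen-repressed genes 4 were higher, PLAU, EFNA1 (0.34), IL1R1 (0.21) and IER3 (0.90), and KLF4 was lower. E2 against vehicle was called lower for PLAU and EFNA1. It was not called for IL1R1 (0.03, limma adjusted p = 0.945) or IER3 (-0.12, adjusted p = 0.727).

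**Figure D5:**
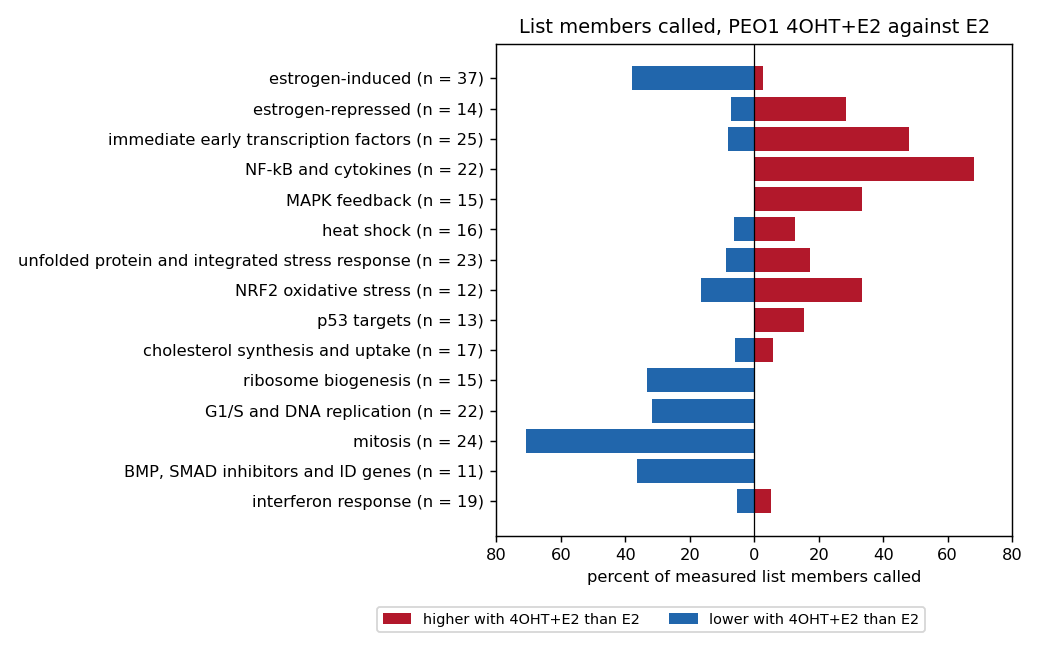
Percent of the measured members of 15 gene lists called higher (red, to the right) or lower (blue, to the left) with 4OHT+E2 than with E2, 1 row per list. NF-kB genes and cytokines reach furthest to the right (15 of 22) and mitosis genes furthest to the left (17 of 24).

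ESR1, which encodes estrogen receptor alpha, had 11.24, 11.21, 11.21 and 11.24 with 4OHT+E2, against 11.25, 11.33, 11.26 and 11.35 with E2. All 4 were below the E2 arrays by a margin smaller than their spread, and the difference of -0.07 ± 0.04 was not called (limma adjusted p = 0.182). FOXA1, a pioneer factor of the receptor, had 7.81, 7.61, 7.34 and 7.58 with 4OHT+E2, against 6.99, 7.10, 7.07 and 6.96 with E2, and rose by 0.56 ± 0.08 (adjusted p = 8.13e-06). In the insulin-like growth factor axis STC2 and IGF1R, the type 1 receptor, fell by 0.38 and 0.20, 2 of 16 genes with 0 higher. That count lies near the 8.48% lower among all genes. IGFBP3 differed by 0.06 (adjusted p = 0.46).

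Against ICI+E2, which shares the 4OHT+E2 arrays with the comparisons above, 4OHT+E2 differed in 501 genes (4.19%), 185 higher (1.55%) and 316 lower (2.64%), or 244 and 194 after quantile normalization. HSPA6 was higher by 1.79, BCL2A1 by 1.41, NR4A3 by 1.40, FOSB by 1.34 and CCL20 by 1.24. ABCA1 and GAS1 were lower, each at -0.53, with TMEM100 (-0.49), FUT9 (-0.49) and CXCR4 (-0.48), a chemokine receptor. The calls of FOSB, TMEM100, FUT9 and CXCR4 were lost when the fit held these 2 groups alone, and that of TMEM100 also without ICI+E2 replicate A (-0.45) or B (-0.426) or without 4OHT+E2 replicate A (-0.467) or B (-0.418). Of the reversed genes, CA12 differed from ICI+E2 by -0.02 (limma adjusted p = 0.81), and GREB1 was lower by 0.35 on the log2 scale, its difference being -0.35 (adjusted p = 0.0309).

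PEO4 offers a set of E2 genes called on other arrays. Of 199 genes that E2 raised in PEO4 (1.66% of those tested), 101 (50.8%) were lower and 10 (5.03%) higher in PEO1 with 4OHT+E2 than with E2, with a median of -0.158. Of these, 113 were not called by E2 in PEO1, and 31 of the 113 (27.4%) were lower and 9 higher. Of 55 genes that E2 lowered in PEO4 (0.46%), 13 (23.6%) were higher and 4 (7.27%) lower. Of the 41 of them not called by E2 in PEO1, 6 (14.6%) were higher and 4 (9.76%) lower, with a median of -0.048. Among all genes 4.26% were higher and 8.48% lower in this PEO1 comparison, with a median of -0.014. The 3′ minus 5′ difference of ACTB in PEO4 was 0.48, 0.59, 1.07 and 1.74 in the 4OHT+E2 arrays, against 0.68, 0.80, 1.02 and 0.73 in the E2 arrays, with 4OHT+E2 replicate 4 the highest, and its part in the PEO4 calls was not tested. In PEO4, 4OHT+E2 against E2 called 686 genes (5.73%), 428 higher (3.58%) and 258 lower (2.16%). Array medians differed between the lines, which were treated as normalized separately. A test of the difference in their 4OHT+E2 minus E2 changes called 236 genes (1.97%), and 211 without PEO4 4OHT+E2 replicate 4. Of the 236, 68 had the higher value in PEO1 (0.568%) and 168 the lower (1.4%). That split depends on scaling, with 89 higher and 113 lower after quantile normalization.

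ARHGAP26 fell by 1.07 in PEO1 and by 0.22 in PEO4 (limma adjusted p = 1.49e-09 for the difference), and CADM1 by 0.96 in PEO1 against a change of -0.18 in PEO4 (adjusted p = 2.86e-10). BMAL1 fell by 0.52 in PEO1 and rose by 0.36 in PEO4 (adjusted p = 6.63e-10). GREB1 fell in both, with -2.65 in PEO1 and -1.82 in PEO4. RGCC, DUSP4 and GEM rose less in PEO1, by 0.93, 0.88 and 1.20, than in PEO4, by 2.5, 2.1 and 2.06. FOSB had 1.57 in PEO1 and 2.38 in PEO4, a difference that was not called (adjusted p = 0.108).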

How the data were processed

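Total RNA was labelled and hybridised to 56 Affymetrix arrays, and the authors deposited a table of 22277 probe sets in log2 units made with RMA, per the submitters' processing notes; the RMA version is not given in the sources used here. Probe sets with 1 symbol (19064) were kept, those with several (1043) or none (2108) and 62 controls were left out, and each of 11963 genes was represented by its brightest probe set on average across the arrays. limma 3.58.1 (R 4.3.3) fitted a mean per group over the 28 PEO1 arrays, with empirical Bayes variances and Benjamini-Hochberg adjustment over all genes. The difference between lines came from a fit of all 56 arrays. On simulated data of 11963 genes the PEO1 4OHT+E2 against E2 test recovered 76 of 100 changes of 0.3 and 97 of 100 of 0.6, with 7 false calls. Genes were named by rank of change (15 per direction, 8 per direction among reversals, 5 per direction in other comparisons, up to 4 per list) and by 30 gene lists. The compared arrays, the lists and the rules were chosen with earlier results of these data known. Precision is limited by the 4 arrays per group. Alternatives are given in the closing section. Python 3.11.15, pandas 2.3.3 and matplotlib 3.10.9 were used for summaries and plots.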

Additional observations from a re-analysis of the deposited data

Results flagged for a closer look

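In 82 groups of 4 arrays (41 genes named for 4OHT+E2 against E2, in both groups), 3 arrays stood far from the other arrays of their group, where chance gives about 1 in 20 groups. ARHGAP26 was lowest in 4OHT+E2 replicate A (8.26), CA12 was highest in 4OHT+E2 replicate D (8.81) and CCL20 was lowest in E2 replicate C (5.66). All 3 lie on the same side of the other group as their neighbours.

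The 4OHT effect in PEO1 differed with and without E2, by the test of the difference, in GREB1 (-1.81), ARHGAP26 (-1.09), EGR3 (-1.06), IL12A (-0.99) and CA12 (-0.98), and in the other direction in FCER2 (0.58), SLC39A2 (0.56), SLC2A3 (0.41), CYRIA (0.39) and ZBED2 (0.39).

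The change with 4OHT+E2 against E2 was lower in PEO1 than in PEO4, by the test of the difference, for RGCC (-1.57), DUSP4 (-1.22), DKK1 (-1.01), PTGS2 (-0.92) and IL6R (-0.92). DKK1, a secreted Wnt inhibitor, rose by 0.48 in PEO1 and by 1.49 in PEO4. PTGS2 fell by 0.55 in PEO1, with 0.38 in PEO4 (limma adjusted p = 0.0747). It was higher in PEO1 for BACH2 (0.8), KHDC1L (0.78), F13A1 (0.76), PKNOX2 (0.71) and CASQ2 (0.67).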

How the results depend on the processing

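Counts of called genes moved by over 1.5 times when the fit held the compared groups alone: 4OHT+E2 against E2 had 497, the difference with and without E2 50, 4OHT+E2 against vehicle 256, E2 against vehicle 159, 4OHT against vehicle 249, 4OHT+E2 against ICI+E2 89 and the line difference 107. Array weights gave 802 for 4OHT+E2 against ICI+E2 and 744 for the line difference. With 1 array left out at a time, the counts were 951 to 2079 for 4OHT+E2 against E2, 62 to 84 for the difference with and without E2, 0 to 5 for 4OHT+E2 against 4OHT, 451 to 1250 for 4OHT+E2 against vehicle, 176 to 243 for E2 against vehicle, 384 to 884 for 4OHT against vehicle, 220 to 1042 for 4OHT+E2 against ICI+E2 and 137 to 336 for the line difference. The low counts for 4OHT+E2 against E2 came without E2 replicate C (951), 4OHT+E2 replicate B (980) or E2 replicate B (997). The cause was not tested, beyond fewer arrays in these fits. Other probe sets turned the sign for CA12 (0.03), FRMD4B (-0.1), KLF9 (-0.04) and SAMD4A (0.0), none of them called. Over 48 other probe sets of 23 genes, 27 were not called, 21 were called in the same direction and 0 in the opposite. FUT9, for example, had -0.09 and -0.05 in its other probe sets. Under quantile normalization, array weights, a trended variance and the replicate block, each of 71 gene results kept its direction and side of the threshold. With the compared groups alone, 5 lost their call, FCER2 for the difference with and without E2 and FOSB, TMEM100, FUT9 and CXCR4 against ICI+E2. With 1 array left out, TMEM100 lost its call in 4 fits (-0.467 to -0.418), and the other 724 values kept theirs.

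Letters A to D were not used to pair arrays in the main fit. Same-letter deviations correlated at -0.15 to 0.34 over 16 pairs, 6 of them over 0.1, and the own letter was the best match in 6. These values do not settle whether a letter marks arrays that belong together. With the replicate block the counts were 1494, 77, 0, 805, 250, 757, 518 and 239, in the order 4OHT+E2 against E2, with and without E2, against 4OHT, against vehicle, E2, 4OHT, against ICI+E2 and between lines, and 0 of 71 gene results changed call.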
